A study of Homo sapiens with 6 samples.

Results

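The genes studied here make, inactivate or sense prostaglandins. They are the 10 rows of the deposited table with the symbols PTGS1, PTGS2, PTGES, PTGES2, PTGES3, PTGR1, PTGIS, HPGD, PTGER2 and PTGER4, out of 61806 genes. The set was taken by name because PTGES was seen to go down from a high level in these same libraries, so the level of PTGES and the difference between the groups are given for the 10 genes as a description, with no p-value. RNA was sequenced from U87-MG, an established human glioblastoma cell line, in 6 libraries. The 3 negative control libraries (NC) carry the genotype label wildtype, and the 3 libraries with GRIK1 siRNA in their titles carry the genotype label GRIK1 knockdown. The methods describe 3 siRNA sequences against GRIK1, a kainate-type glutamate receptor subunit, while the deposited design speaks of an shRNA. The numbers 1, 2 and 3 of the siRNA libraries could be replicates or the numbers of the siRNA sequences, and were used as replicate numbers. The first sequence was the one carried into later experiments, but no label says which sequence a library received. No label states separate cultures, so the p-values measure only the spread between these libraries, which may be technical.

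Prostaglandins are signalling lipids made from arachidonic acid, which phospholipases release from membranes. The cyclooxygenases PTGS1 (COX-1) and PTGS2 (COX-2) turn arachidonic acid into PGH2, which terminal synthases then turn into a given prostaglandin, such as PGE2 by PTGES. PGE2 leaves the cell and acts on G protein-coupled receptors, among which PTGER2 (EP2) and PTGER4 (EP4) raise cyclic AMP, and HPGD and PTGR1 inactivate it. PGE2 made by COX-2 is known for its part in inflammation and in the growth of many tumors, glioma included.

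Each library held between 11099909 and 14006968 counted reads. GRIK1 itself had 18, 9 and 8 counts in NC, and the other group had 15, 20 and 20 (difference on the log2(FPKM + 1) scale 0.124, two-sided exact permutation test, p = 0.4, where the smallest possible p is 0.1). The targeted transcript was thus not measured lower. Its mean was only 0.233 FPKM in NC, and counts this low can miss a fall. The paper reports an efficient knockdown of GRIK1 in U87-MG cells from relative GRIK1 levels. The second group is called by its label below, as the siRNA-labelled libraries. NC library 3 stood apart from the other 5 libraries on the first principal component, which held 59.5% of the variance. Of 15870 genes tested with edgeR, 224 (1.41%) passed both limits used for a call, which were 0.05 for the adjusted p and 1 for the size of the log2 fold change, and 491 were called without NC library 3. Of 6 markers of U87-MG and mesenchymal glioma, 5 were above 1 FPKM in each library, led by VIM, and NES was not, with at most 0.69 FPKM. Of 5 glial markers 0 were above 1 FPKM in any library: AQP4 was at 0, GFAP at most at 0.28 FPKM and OLIG2 at most at 0.83 FPKM. Markers of endothelium and oligodendrocytes were at most at 0.07 FPKM, and of the neuronal ones only SNAP25 passed 1 FPKM (1.45 to 2.15). Of 3 immune markers AIF1 was at 0, PTPRC at most at 0.03 FPKM and CD68 at 2.11 to 4.06 FPKM. FN1, a fibronectin of the mesenchymal list, was at 11.61 FPKM in NC library 3 and between 62.89 and 93.32 FPKM in the other 5.

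The stretches upstream of PTGES, PTGES2 and PTGER2 are shown because these genes had no overlap between the groups. That of PTGS2 is shown because it was the main cyclooxygenase transcript in these cells. The RefSeq promoter table (GRCh38.p14) held 9 of the 10 genes, all but PTGIS. Each sequence below holds the 250 bases before the RefSeq start nearest to that of the deposited table, 499 bases away for PTGS2, whose window so lies within the gene as the table bounds it, and at most 22 for the others, 5′ to 3′ on the strand of the gene. Capitals mark the TATA box (TATAAA), the GC box (GGGCGG) and an EGR1 site (GCGTGGGCG), searched on both strands.
PTGES (chr9:129753043-129753292, minus strand): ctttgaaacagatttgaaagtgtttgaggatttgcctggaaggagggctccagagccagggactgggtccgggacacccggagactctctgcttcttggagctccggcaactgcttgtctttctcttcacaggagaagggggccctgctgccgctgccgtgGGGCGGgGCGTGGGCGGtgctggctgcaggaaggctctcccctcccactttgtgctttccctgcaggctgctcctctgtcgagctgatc
PTGES2 (chr9:128128441-128128690, minus strand): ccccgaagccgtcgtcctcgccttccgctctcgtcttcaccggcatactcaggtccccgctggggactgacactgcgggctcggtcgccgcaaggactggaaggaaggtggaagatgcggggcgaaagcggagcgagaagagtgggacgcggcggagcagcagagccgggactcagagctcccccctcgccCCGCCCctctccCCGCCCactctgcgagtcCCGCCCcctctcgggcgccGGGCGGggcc
PTGER2 (chr14:52314062-52314311, plus strand): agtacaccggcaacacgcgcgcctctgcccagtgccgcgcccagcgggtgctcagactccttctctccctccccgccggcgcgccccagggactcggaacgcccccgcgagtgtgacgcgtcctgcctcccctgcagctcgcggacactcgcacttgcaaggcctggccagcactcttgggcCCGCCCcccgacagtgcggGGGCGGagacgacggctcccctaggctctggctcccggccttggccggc
PTGS2 (chr1:186680424-186680673, minus strand): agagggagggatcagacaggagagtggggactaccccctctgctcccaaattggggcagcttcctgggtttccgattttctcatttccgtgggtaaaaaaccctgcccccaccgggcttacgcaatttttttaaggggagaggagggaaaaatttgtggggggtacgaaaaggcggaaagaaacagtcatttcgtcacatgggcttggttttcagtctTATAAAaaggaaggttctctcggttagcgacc
The PTGES window had no TATA box and held 2 GC boxes, which ended 84 and 73 bases before the start. The window also held the EGR1 site, whose last base lay 74 bases before the start and which overlaps the second GC box. Another RefSeq window of PTGES2, not shown, held an EGR1 site too, which ended 139 bases before the start of that window's transcript. The letters of the EGR1 site were found in 0.72% of the 35116 RefSeq windows of 250 bases, those of the GC box in 42.6% and those of the TATA box in 10.7%. The windows shown for PTGES2 and PTGER2 held 4 and 2 GC boxes. That of PTGER2 also held a CRE core (TGACG, in 21.2% of windows) that ended 133 bases before the start. In windows not shown, PTGES3 and PTGER4, whose groups overlapped, held 4 GC boxes each, and PTGR1, whose groups overlapped too, held 0. The PTGES3 window also held a CRE core. The PTGS2 window held no GC box. It held a TATA box that ended 27 bases before the start, a CRE core that ended 54 bases before it and a CCAAT box (CCAAT, in 32.0% of windows). The GC content was 61.2% for PTGES, 72.4% for PTGES2, 74.0% for PTGER2 and 50.4% for PTGS2, against a median of 58.0% over all windows. These matches describe letters only and do not show that a factor was bound.

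The 10 genes covered a wide range of levels in U87-MG cells. Levels are compared between genes in FPKM, which scales a count to exonic length and to library total. In the NC libraries the order of the mean FPKM was PTGES, PTGES3, PTGS2, PTGR1, PTGES2, PTGER2, PTGER4, PTGS1, HPGD and PTGIS. PTGS2 and PTGR1 overlapped in NC FPKM, as did PTGS1 and HPGD, and HPGD and PTGIS. The other 6 pairs of neighbours in this order did not overlap. Of the 10 genes, 7 had a mean of at least 0.5 FPKM and entered the test across genes, while PTGS1, PTGIS and HPGD did not.

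**Figure D1:**
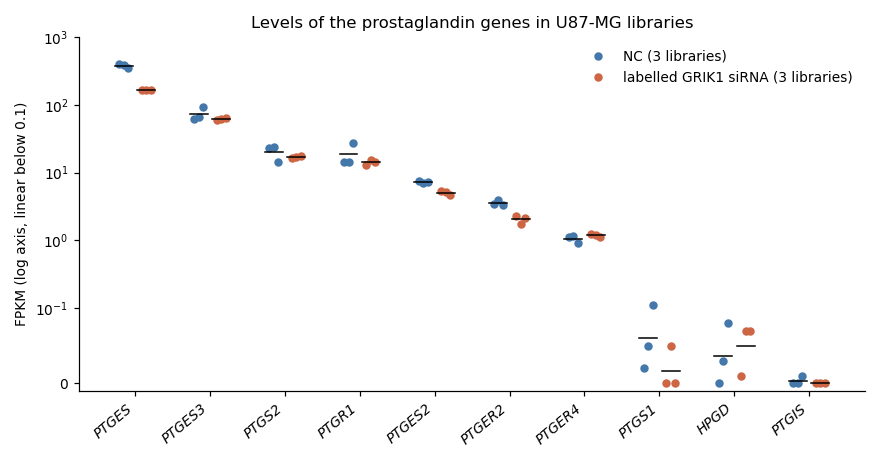
FPKM of each gene (vertical axis, logarithmic and linear below 0.1) in the 3 NC libraries (blue) and the 3 libraries labelled GRIK1 siRNA (orange), with black lines for the means. PTGES lies highest, and PTGS1, HPGD and PTGIS lie near 0 in all 6 libraries.

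The main cyclooxygenase transcript of these cells was PTGS2, which encodes the inducible enzyme. PTGS2 (ENSG00000073756, chromosome 1 from 186671791 to 186680922, GRCh38) had 23.36, 23.57 and 14.40 FPKM in NC libraries 1, 2 and 3, and 16.65, 17.26 and 17.87 FPKM in the siRNA-labelled libraries 1, 2 and 3. NC library 3 was thus below the siRNA libraries and the other NC libraries above them. In normalized CPM, which uses the TMM scaling of edgeR and no gene length, PTGS2 had a mean of 115 ± 22.5 in NC and 92.3 ± 3.54 in the siRNA-labelled libraries (SD, n = 3 each). The change on the log2 scale was -0.32 (standard error 0.16) with all libraries and -0.47 (standard error 0.05) without NC library 3. PTGS1 (chromosome 9 from 122370530 to 122395703), the constitutive enzyme of many tissues, had 1, 3 and 9 counts in NC and 0, 4 and 0 counts in the siRNA-labelled libraries. These counts do not allow a fold, as a library with 0 counts may still hold up to 3. PACERR, an antisense RNA of the PTGS2 promoter region, overlaps PTGS2 on the opposite strand and had between 22 and 33 counts in NC and between 14 and 32 in the others, against at least 1106 counts on PTGS2 in each library.

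PTGES, the microsomal PGE2 synthase that works together with COX-2, stood highest of the 10 genes and differed most. PTGES (ENSG00000148344, chromosome 9 from 129738331 to 129753042, minus strand) had 8298, 8119 and 9197 counts in NC and 3949, 3913 and 4105 counts in the siRNA-labelled libraries. In FPKM these were 395.33, 386.00 and 347.22 in NC, and 168.62, 163.95 and 164.32 in the others. By its mean NC level, PTGES ranked 72nd of the 15870 tested genes. In normalized CPM it had 739, 729 and 740 in NC against 310, 302 and 304, with means of 736 ± 6.07 and 305 ± 4.25 (SD, n = 3 each). Each library of a group lay within a few percent of the others, NC library 3 included, and the groups were far apart. The log2 fold change was -1.27 (standard error 0.12), which places the siRNA-labelled libraries at 41.5% of the NC level, and it was -1.26 (standard error 0.05) without NC library 3. In bulk RNA, fewer cells with a transcript and less transcript in each cell cannot be told apart.

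**Figure D2:**
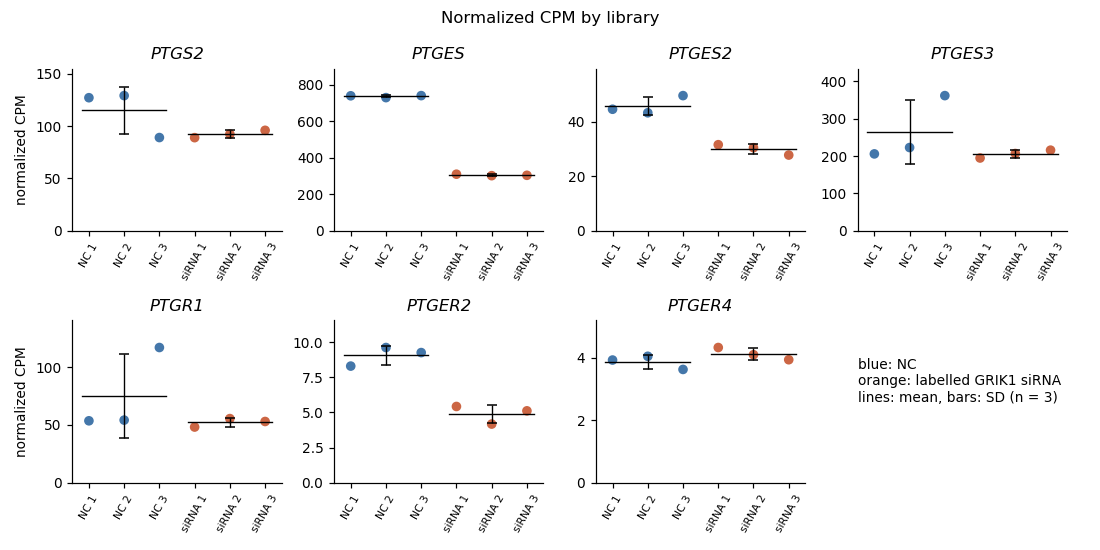
Normalized CPM (vertical axes, from 0) of the 7 genes above the filter in NC libraries 1 to 3 (blue) and libraries labelled GRIK1 siRNA 1 to 3 (orange), with the mean and SD of each group. PTGES, PTGES2 and PTGER2 show no overlap between groups, and NC library 3 stands off in PTGS2, PTGES3 and PTGR1.

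The other synthases linked to PGE2 differed less. PTGES2, a membrane-associated enzyme, had 44.6, 43.3 and 49.6 normalized CPM in NC and 31.6, 30.5 and 27.8 in the siRNA-labelled libraries. Each of the latter was below each NC library. The log2 fold change of PTGES2 was -0.61 (standard error 0.12), or 65.3% of the NC level, and -0.55 (standard error 0.08) without NC library 3. PTGES2 (chromosome 9 from 128120693 to 128128462) lies on the same chromosome as PTGES and on the same strand. PTGES3, also known as p23, is a co-chaperone of HSP90 as well as a cytosolic PGE2 synthase. PTGES3 (chromosome 12 from 56663341 to 56688408) had 206, 223 and 362 normalized CPM in NC and 195, 207 and 216 in the others, so that only NC library 3 stood clearly above the rest. Its log2 fold change moved from -0.36 (standard error 0.22) to -0.06 (standard error 0.05) without that library. The table lists 5 PTGES3 pseudogenes, which together held at most 1.85% as many counts as PTGES3, and reads shared with them leave its count slightly uncertain.

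The mix of the 3 PGE2 synthase transcripts therefore differed between groups. PTGES made up 85.2%, 84.1% and 77.3% of their summed FPKM in NC libraries 1, 2 and 3. In the siRNA-labelled libraries it made up 72.4%, 70.8% and 70.3%, which is below each NC library. The summed FPKM was 464.1, 458.9 and 448.9 in NC and 232.9, 231.5 and 233.8 in the others. The ratio of PTGES to PTGES2 in FPKM was between 48.0 and 54.2 in NC and between 31.6 and 35.2 in the siRNA-labelled libraries. The ratio of PTGES to PTGS2 in FPKM was 16.9, 16.4 and 24.1 in NC, and 10.1, 9.5 and 9.2 in the others. These shares and ratios follow from the PTGES values by which the genes were chosen.

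**Figure D3:**
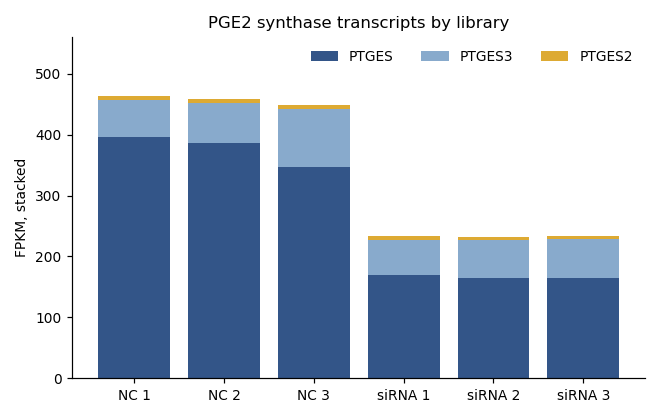
FPKM of PTGES, PTGES3 and PTGES2, stacked for each of the 6 libraries. The stacks reach between 448.9 and 464.1 FPKM in NC and between 231.5 and 233.8 FPKM in the siRNA-labelled libraries, and most of the gap lies in the PTGES part.

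Prostacyclin synthase was close to undetected. PTGIS (chromosome 20 from 49503874 to 49568137), which turns PGH2 into prostacyclin, had 1 count in NC library 3 and 0 counts in each of the other 5 libraries. A prostacyclin branch was thus not measurable in the transcripts of these cells at this depth.

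Of the genes that inactivate prostaglandins, PTGR1 was present and HPGD nearly absent. HPGD (chromosome 4 from 174490175 to 174523154), the dehydrogenase that starts the breakdown of PGE2, had 0, 2 and 6 counts in NC and 1, 5 and 5 counts in the siRNA-labelled libraries. PTGR1 (chromosome 9 from 111549722 to 111599893), a reductase that acts after HPGD and also on leukotriene B4, had 53.6, 54.2 and 117 normalized CPM in NC and 48.2, 55.5 and 53.0 in the others. Only NC library 3 stood off, at 2.16 of the mean of the other NC libraries. The log2 fold change of PTGR1 was -0.52 (standard error 0.30) with that library and -0.04 (standard error 0.07) without it. ZNF483 overlaps PTGR1 on the opposite strand and had between 43 and 139 counts.

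The PGE2 receptors differed in their pattern. PTGER2 (chromosome 14 from 52314305 to 52328598) had 93, 107 and 115 counts in NC and 69, 54 and 69 counts in the siRNA-labelled libraries. In normalized CPM this was 8.29, 9.61 and 9.25 against 5.42, 4.17 and 5.11, with no overlap between the groups. Its log2 fold change was -0.88 (standard error 0.18), or 54.2% of the NC level, and -0.87 (standard error 0.17) without NC library 3. PTGER4 (chromosome 5 from 40679915 to 40693735) had 3.92, 4.04 and 3.62 normalized CPM in NC and 4.32, 4.09 and 3.93 in the others, so the groups overlapped. Its log2 fold change was 0.09 (standard error 0.19). The ratio of PTGER2 to PTGER4 in FPKM was 3.04, 3.42 and 3.66 in NC and 1.81, 1.47 and 1.88 in the siRNA-labelled libraries. TTC33 overlaps PTGER4 on the opposite strand with 299 to 763 counts, and as the strand setting of the counting is not given in the sources used here, the PTGER4 counts, between 44 and 55, are uncertain.

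Of the 7 genes above the filter, PTGES, PTGES2 and PTGER2 had each library labelled GRIK1 siRNA below each NC library in normalized CPM, and none had the reverse. Among all tested genes, 19.0% had no overlap in the lower direction and 19.4% in the higher one. As the set was chosen from this contrast, nothing is read from the count of 3. With NC library 3 left out, PTGES, PTGES2 and PTGER2 kept log2 fold changes of -0.55 or lower, PTGS2 moved to -0.47, and PTGES3, PTGR1 and PTGER4 lay between -0.06 and 0.05.

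**Figure D4:**
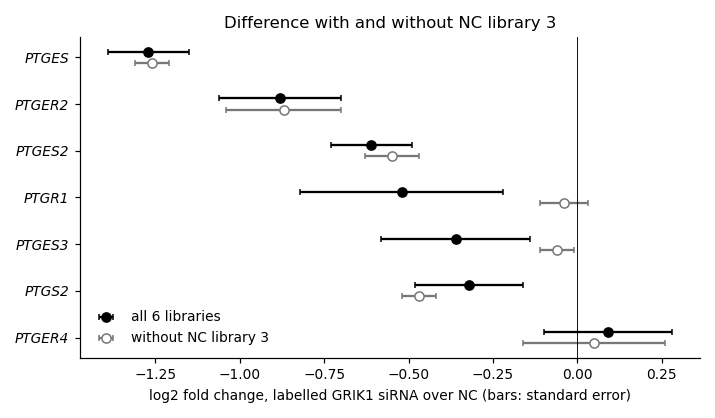
Log2 fold change (horizontal axis) of the siRNA-labelled libraries over NC for the 7 genes above the filter, with all 6 libraries (filled) and without NC library 3 (open), with standard errors. PTGR1 and PTGES3 move from -0.52 and -0.36 to -0.04 and -0.06, while PTGES stays at -1.27 and -1.26.

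The genes whose pattern over the 6 libraries was most like that of PTGES were found by the root-mean-square difference of log2 CPM after centring each gene on its mean. The closest were HMGA1, a chromatin protein, IRF2BPL, PLPP3, a lipid phosphate phosphatase, TMEM171 and CLSPN, a replication checkpoint adaptor. Their log2 fold changes were -1.31, -1.26, -1.20, -1.14 and -1.12 in that order. HMGA1 had 542, 524 and 533 normalized CPM in NC and 222, 212 and 209 in the siRNA-labelled libraries. Of the genes of the set, PTGER2 was nearest to PTGES by the same measure (0.234), followed by PTGES2 (0.337), and PTGER4 was farthest (0.681). In all, 58 tested genes outside the set lay within 0.2 of PTGES. The measure takes in the difference between the groups by which the set was chosen. Its order is therefore a description and no separate support.

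The rest of the eicosanoid pathway was followed in lists of 89 other genes, all in the table, of which 63 were above the filter. The lists were chosen with earlier results of these data known. Their shares and p-values are therefore a description and no independent support. For these lists a gene passed at an adjusted p under 0.05 whatever its fold change, a wider limit than that of the 224 calls above. By edgeR's quasi-likelihood test with Benjamini-Hochberg adjustment over all tested genes, 3 of the 63 were lower (4.76%) and 1 was higher (1.59%) in the siRNA-labelled libraries, against 1.48% and 1.61% of all tested genes. The median log2 fold change of the 63 genes was -0.19, and that of all tested genes -0.02. Without NC library 3, 26 of the 63 were lower (41.3%) and 6 higher (9.52%), against 18.3% and 16.9% of all tested genes. The 4 genes that passed with all libraries were IL1B, AKR1B1, MGLL and FADS2, of which FADS2 alone also had a log2 fold change over 1 in size.

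IL1B, the cytokine interleukin 1 beta that induces PTGS2 and PTGES in many cells, had 605, 622 and 777 normalized CPM in NC and 345, 335 and 344 in the siRNA-labelled libraries. It fell by 0.97 on the log2 scale (standard error 0.14, adjusted p = 0.0303 from edgeR). Each siRNA library was below each NC library. Immune cells are a known source of IL1B, and the summed FPKM of the 3 immune markers was 2.11 to 3.22 in NC and 3.47 to 4.07 in the others, nearly all of it CD68; its part in the result was not tested. In the list of inducers and mRNA regulators of PTGS2 and PTGES, 1 of 19 tested genes was lower and 0 were higher by edgeR. At an unadjusted p under 0.05, 4 were lower and 0 higher, against 2090 and 1897 of the 15870 tested genes. CXCL8 (interleukin 8), the gene of that list with the highest mean NC FPKM, had 1370, 1450 and 3000 normalized CPM in NC against 721, 747 and 749. At a log2 fold change of -1.39 ± 0.31 (SE), CXCL8 missed the threshold (edgeR, adjusted p = 0.0573), and without NC library 3 the change was -0.93 and passed (adjusted p = 2.19e-10). ANXA1, an inhibitor of phospholipase A2, had a log2 fold change of -0.02 (adjusted p = 0.951), which turned to 0.23 and passed without NC library 3 (adjusted p = 9.63e-04). EGR1, whose site stands in the PTGES window and which was picked out after its values were seen, had 122, 118 and 64.8 normalized CPM in NC against 113, 106 and 104, and its log2 fold change was 0.09 ± 0.23 (SE, edgeR, adjusted p = 0.832). Without NC library 3, the lowest of the 6 for EGR1, it turned to -0.15 and passed (adjusted p = 0.0428).

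Among transcripts for the supply of arachidonic acid, MGLL was lower and FADS2 higher. MGLL, the monoacylglycerol lipase that frees arachidonic acid from 2-arachidonoylglycerol, had 155, 140 and 150 normalized CPM in NC against 104, 97.0 and 102. MGLL fell by 0.55 on the log2 scale (standard error 0.11, adjusted p = 0.0449 from edgeR). FADS2, a desaturase on the way to arachidonic acid, had 9.18, 9.34 and 5.15 normalized CPM in NC against 21.3, 22.6 and 23.6. FADS2 rose by 1.51 ± 0.23 (SE) on the log2 scale (edgeR, adjusted p = 0.0304). FADS1 lies within the span of FADS2 on the opposite strand, with 873 to 1263 counts against 64 to 318 on FADS2. As the strand setting of the counting is not given, the FADS2 counts are uncertain. MGLL and FADS2 were the 2 of 17 tested supply genes that passed. ELOVL5 and MBOAT7, those with the highest NC FPKM, had log2 fold changes of -0.02 and 0.31 (adjusted p = 0.908 and 0.474), and both had 0.04 without NC library 3. PLA2G4A, the cytosolic phospholipase A2 that releases arachidonic acid and which was picked out after its values were seen, had 12.4, 13.6 and 23.7 normalized CPM in NC against 5.81, 7.33 and 7.85. PLA2G4A missed the threshold at a log2 fold change of -1.24 ± 0.28 (SE, edgeR, adjusted p = 0.0600), and passed at -0.88 without NC library 3 (adjusted p = 1.98e-04).

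Among the other synthases and reductases, AKR1B1 was the one that passed, of 11 tested. AKR1B1, an aldose reductase that also makes PGF2α, had 2570, 2650 and 3680 normalized CPM in NC against 1600, 1510 and 1480. AKR1B1 fell by 0.96 on the log2 scale (standard error 0.18, adjusted p = 0.0433 from edgeR). CBR1, a carbonyl reductase of PGE2, had a log2 fold change of -0.52 (adjusted p = 0.170), and of -0.25 without NC library 3, where it passed (adjusted p = 0.0117). The log2 fold change was below 0 in 11 of the 11 genes, and in 10 of them without NC library 3, against 8158 and 7821 of the 15870 tested genes. The lists of transport, of other receptors and of the lipoxygenase and leukotriene branch held 3, 4 and 9 tested genes and 0 that passed in edgeR. At an unadjusted p under 0.05 there were 0, 1 and 3, against 3987 of the 15870 tested genes. Without NC library 3, 0, 2 and 3 of them passed, in a fit where 18.3% of all tested genes passed as lower and 16.9% as higher. ABCC4, which exports PGE2, had a log2 fold change of -0.12 (adjusted p = 0.673), and SLCO4A1 had 0.34 (adjusted p = 0.621). Both turned sign without NC library 3, to 0.07 and -0.03, and did not pass. The receptors list also held PTGFRN, an inhibitor of the PGF2α receptor and not a prostanoid receptor itself. PTGFRN and PPARD led that list in level, with log2 fold changes of 0.35 and 0.04 (adjusted p = 0.291 and 0.884). Without that library PTGFRN passed at 0.16 (adjusted p = 0.0111), and PPARD had -0.07 (adjusted p = 0.646). MGST1 and MGST3, relatives of PTGES in the MAPEG family of membrane enzymes, had -0.41 and -0.36 (adjusted p = 0.159 and 0.373). Without that library MGST1 passed at -0.26 (adjusted p = 6.17e-04), and MGST3 had -0.01 (adjusted p = 0.887).

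**Figure D5:**
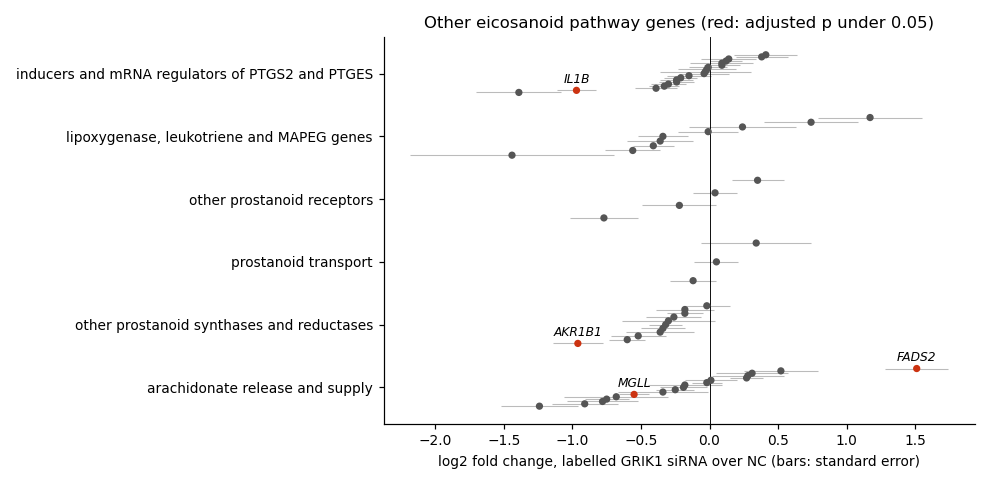
Log2 fold change (horizontal axis, bars for the standard error) of the 63 tested genes of the 6 pathway lists, 1 point a gene, with those of an adjusted p under 0.05 in red and named. IL1B, AKR1B1 and MGLL lie below 0 and FADS2 above it.

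Whether these 4 genes passed depended on which libraries entered the fit. Without NC library 3 each of the 4 genes had a smaller adjusted p, from 4.46e-10 for IL1B to 1.39e-06 for MGLL, while without any 1 of the other 5 libraries none of them passed in edgeR, with adjusted p-values between 0.0677 and 0.259. The log2 fold changes of IL1B, AKR1B1, MGLL and FADS2 were -0.84, -0.77, -0.54 and 1.28 without NC library 3. With all libraries they were -0.97, -0.96, -0.55 and 1.51. In limma on log2(FPKM + 1), MGLL did not pass (adjusted p = 0.0702).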

How the data were processed

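Total RNA of U87-MG cells was sequenced in 6 libraries, 3 per group, and grouped by title. The submitters' processing notes name cutadapt 1.9.1, HISAT2, HTSeq and GRCh38. The authors deposited whole-number counts per gene, not normalized, and FPKM values made from them, and 100.0% of the FPKM values equal the count divided by exonic size and total count (tolerance 0.006). Strand setting and annotation version are not given in the sources used here. No column was left without a sample, and 0 rows named no gene.

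The 15870 genes whose mean reached 0.5 FPKM were tested in edgeR 4.0.16 (R 4.3.3) by the quasi-likelihood test with TMM scaling and Benjamini-Hochberg adjustment over all of them. Standard errors are the log2 fold change divided by the square root of F. The 10 genes and the pathway lists were chosen with earlier results of these data known, and no p is given for the 10. Genes named besides the 10 were GRIK1, pathway genes that passed, the 2 of each list with the highest mean NC FPKM, the 5 genes most like PTGES, overlapping genes and markers; exceptions are stated. A library with 0 counts may hold up to 3 (95% limit), a limit that covers counting error only. The tests were tried on simulated counts for this comparison over 15870 genes, with 200 genes changed by a log2 fold of 2, and 193 were recovered by edgeR, beside 6 false calls. These simulated calls used both limits, and no simulated library was made to stand apart as NC library 3 did. The planted change was also larger than that of any pathway gene that passed. The simulation therefore does not measure how well the pathway calls hold. As alternatives, DESeq2 1.42.0, limma 3.58.1, other scaling and filters, the replicate number as a block and leaving out each library were run. Promoters came from RefSeq (GRCh38.p14). Python 3.11.15 was used for the rest.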

Additional observations from a re-analysis of the deposited data

How the results depend on the processing

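Calls over all genes used the adjusted p and the fold limit, and counts of pathway genes the adjusted p alone. With DESeq2 499 genes were called over all tested, and 9 pathway genes changed, 8 of them lower. Without the filter these numbers were 664, 10 and 8, with 2 higher. In limma-trend on log2(FPKM + 1) 113 genes were called. In the main edgeR fit with no fold threshold the number was 490. Over the fits that left out 1 library each, the count ranged from 0 to 491, that of pathway genes from 0 to 32, of lower ones from 0 to 26 and of higher ones from 0 to 6. The highest values came without NC library 3 and the 0 without any 1 of the other 5, where 2238 to 4434 genes, and 10 to 16 of the pathway lists, had an unadjusted p under 0.05 in edgeR. With the replicate number as a block, 0 genes were called and 0 pathway genes changed in edgeR, with 3324 and 15 at an unadjusted p under 0.05, and IL1B, AKR1B1, MGLL and FADS2 had adjusted p-values between 0.0923 and 0.137. The causes of these shifts were not tested. The numbers do not pair the libraries by the data, since the deviations of the pairs of the same number correlated at -0.07, 0.044 and -0.043 across genes. Of the 84 values of the 7 prostaglandin genes under the alternatives, none changed sign and 78 moved by less than the spread between replicates. That spread was each gene's own and was wide where NC library 3 stood off. The shift of PTGES3 from -0.36 to -0.06 thus counted as within it, while 3 values of PTGES did not. The count of 78 is therefore no measure of how stable these differences are. PTGES ranged from -1.30 to -1.18 on the log2 scale, PTGES2 from -0.65 to -0.45, PTGER2 from -0.96 to -0.58, PTGS2 from -0.47 to -0.20, PTGES3 from -0.50 to -0.06, PTGR1 from -0.71 to -0.04 and PTGER4 from 0.05 to 0.13. The ends nearest 0 came from limma on log2(FPKM + 1) for PTGES, PTGES2, PTGER2 and PTGS2. Depth limits PTGS1, PTGIS and HPGD, which had at most 9 counts in a library.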
